A study of Arabidopsis thaliana with 15 samples.

Results

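The genes described here gave their highest array signal, among sorted cells of the Arabidopsis thaliana shoot apex, in the cells named for WUS. Of 22746 probe sets, each a group of short probes for one transcript on an Affymetrix array, 247 (1.09%) were kept. A probe set was kept if its mean signal in WUSp cells was at least 2 times that in CLV3n, in CLV3p and in FILp cells, and if both WUSp arrays read 100 or more. Means are geometric means of MAS5 signals, which are intensities that were not log-transformed, with signals under 20 raised to 20. The limits were met by 250 probe sets, of which MGL, GTR2 and XTH18 were set aside by name. UFO and XTH19 were set aside too, but their ratios of 1.37 and 1.69 lay under the limit. The members were thus chosen by their signals on the 11 sorted arrays, so the WUSp peak itself is a description and no test of it is given.

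At the tip of the shoot, the homeodomain transcription factor WUS is made in a small group of cells called the organizing centre. It maintains the stem cells lying above them, and these secrete the CLV3 peptide, which restrains WUS. FIL, of the YABBY family, marks the outward face of organs that arise at the flank of the meristem.

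The study profiled total RNA from 24-day-old plants on 15 arrays. Sorted cells made up CLV3n, CLV3p and FILp, with 3 arrays each, and WUSp, with 2. The design text says that the CLV3p cell type is missing from CLV3n. A further pair of groups of 2 arrays, Protoplast_induced and Uninduced, is taken here to be unsorted material after and without the removal of cell walls that precedes sorting. The labels give no genotype, reporter line or promoter for any group, so how the cells were marked for sorting is not stated. Separate plants or sorts are not named for the replicates either, so p-values here cover only the spread among the deposited arrays, which may be technical.

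Median signals of the 15 arrays ran from 155 to 199. Across probe sets, which do not count as replicates, rank correlations (Spearman) were 0.952 to 0.982 for the 12 pairs within a group and 0.922 to 0.946 between WUSp and other sorted arrays. The hybridisation control bioC read 219 to 317 on CLV3n 3, CLV3p 3 and all 3 FILp arrays, against 667 to 1093 on the other sorted arrays, so FILp and WUSp share no level of it. On both WUSp arrays the 25S ribosomal RNA control (18502.5 and 18406) and the log2 ratio of 3′ to 5′ signal of ubiquitin (1.41 and 1.69) were below those of every other sorted array (23685 to 36195, and 2.04 to 2.91). The poly-A control spikes (mean log2 signal 6.38 and 6.34) were likewise below those of every other sorted array (6.97 to 7.95). These controls coincide with the WUSp group, and their part in the WUSp peak cannot be told apart from the cells.

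The label was checked against markers with a probe set of their own in the probe table. CLV3, the peptide gene of the stem cells, read 569 to 1220 in CLV3p, 58.0 and 76.1 in WUSp and at most 12.2 in CLV3n and FILp. The 2 organ genes with a probe set, YAB3 and YAB5 of 5 listed, summed to 53.7 and 55.4 in WUSp, 790 to 932 in FILp and 21.4 to 84.1 in CLV3p. The boundary genes LAS and PTL (2 of 5) summed to 88.5 and 111 in WUSp, 465 to 519 in CLV3n and 79.7 to 123 in CLV3p, and the epidermal genes CR4 and SHN3 (2 of 7) to 169 and 186 against 548 to 1275 in the other sorted groups. SHN3 was at 6.32 and 16.0 in WUSp, under the floor. The epidermal sum was thus below all other sorted groups in WUSp, the organ and boundary sums overlapped CLV3p, and CLV3 lay between CLV3p and the other 2 groups. The mesophyll genes LHCB4.1, RCA and PRK (3 of 5) ran the other way in sum, at 5551 and 5952 in WUSp, 3625 to 4422 in CLV3n, 1296 to 1804 in CLV3p and 3259 to 5261 in FILp. RCA (2652 and 2645 in WUSp) and PRK (644 and 558) were above all other sorted arrays. LHCB4.1 (2656 and 2348) was not, with 2502 on CLV3n 1 and 3122 on FILp 2. The part of these mesophyll genes in the members' levels was not tested. WUS itself and the procambium, floral and other meristem markers are not analysed here, so the name of the population rests on its label. None of the listed markers with a probe set of their own was a member. The other listed markers were not looked up among the members, of which 147 have no gene in the probe table.

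The members' WUSp mean exceeded the highest other sorted mean by a median of 2.49-fold, with 79 members at 3-fold or more, 33 at 4-fold, 17 at 5-fold and 5 at 8-fold. The next highest sorted group was CLV3n for 122 members, FILp for 66 and CLV3p for 59, and the lowest was CLV3p for 115, FILp for 97 and CLV3n for 35. The median signal over the members was 743 in WUSp, 218 in CLV3n, 156 in CLV3p and 179 in FILp. Over all probe sets the group medians differed far less, at 164, 181, 161 and 170. In 227 members both WUSp arrays exceeded all 9 other sorted arrays, and in 20 they overlapped. The rule favours such a separation and its share over all probe sets was not counted, so these counts are a description. In bulk samples, fewer cells of a type and less RNA per cell cannot be told apart.

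**Figure D1:**
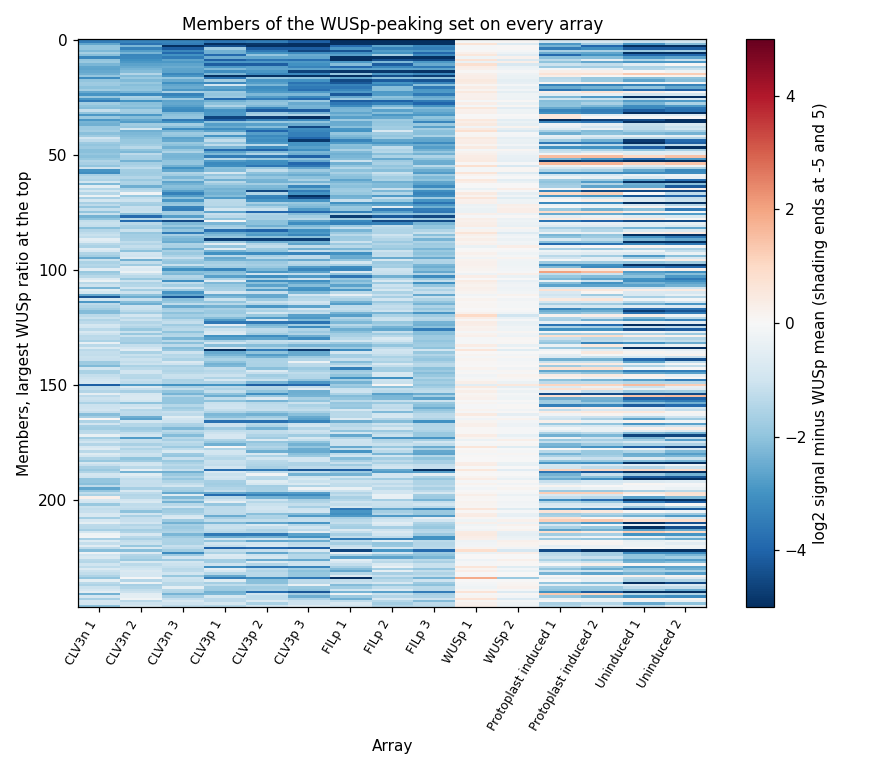
The heat map plots, for each of the 247 members (rows, largest WUSp ratio at the top) and each of the 15 arrays (columns), the log2 signal minus the member's WUSp mean, with signals under 20 raised to 20. The CLV3n, CLV3p and FILp columns are below the WUSp columns in most rows, as the rule requires of their means, while the Protoplast_induced and Uninduced columns hold rows both far below and above WUSp.

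The limits cut through a continuous range. The member nearest to the 2-fold limit had a ratio of 2.00048 and the nearest probe set outside it 1.99882. By the lower WUSp array, the nearest members read 100.5, 102.3 and 103.0, and the nearest probe sets left out 99.1, 99.1 and 98.5.

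The WUSp pair was uneven among the members. WUSp 1 was above WUSp 2 in 180 members (72.9%), against 48.8% of the 12421 probe sets with both WUSp arrays at 100 or more, and the arrays differed by at least 2-fold in 24 members. With WUSp 1 alone 229 members stayed at 2-fold or more over the other sorted means, with WUSp 2 alone 198, and 180 did so with either array. Among the 19 members with a gene symbol, 12 passed with either array, while AR781, MSRB5, ccsA, COR47, SWEET1, PIA1 and LTI30 passed with only one of them. The lowest ratios with a single array were 1.64 for WUSp 1 and 0.566 for WUSp 2. Members were also lower on CLV3n 3 than on the other CLV3n arrays in 55.5% of cases, against 33.1% of all probe sets, and lowest on FILp 2 in 10.9% against 30.8%.

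**Figure D2:**
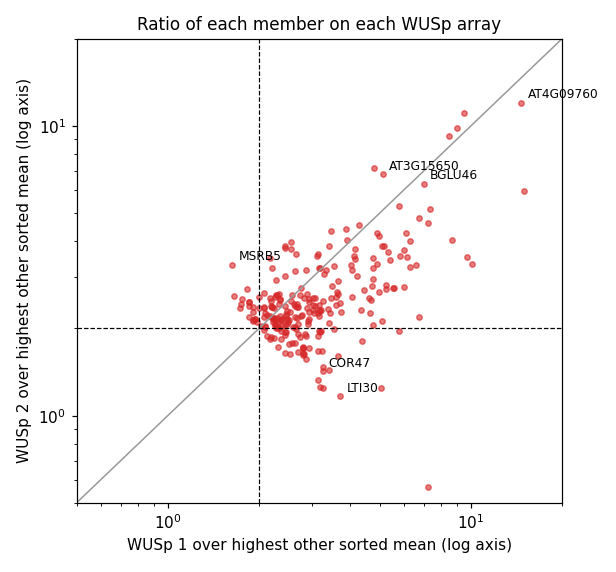
Each of the 247 points is a member, plotted by its WUSp 1 signal (horizontal) and its WUSp 2 signal (vertical) over the highest other sorted mean, both on log axes. The dashed lines mark a ratio of 2, below which 18 members fall with WUSp 1 alone and 49 with WUSp 2 alone, and the grey line marks equal ratios.

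The probe table pairs 97 members with a single gene, 3 with several and 147 with none. Of the 97, 19 have a symbol and 78 only a locus name, for which no role is given here. AT4G09760 had the largest ratio, 13.3. It read 3806 and 3116 in WUSp, 369, 204 and 231 in FILp, 63.6, 18.2 and 29.3 in CLV3p, 43.1, 13.4 and 36.2 in CLV3n, 86.9 and 62.3 in Protoplast_induced and 23.2 and 33.2 in Uninduced. No other group overlapped WUSp, and FILp stood apart from the remaining groups. FILp exceeded CLV3n by 3.23 ± 0.47 (log2, SE, n = 3 and 3; adjusted p = 0.00123; 3.05 with signals raised to the floor of 19.5), and this member was the only one called higher in FILp than in CLV3n.

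AT3G15650, with a ratio of 5.91, had a different profile. It read 5455 and 7253 in WUSp, 1116, 1042 and 1035 in CLV3p, 650, 673 and 555 in CLV3n, 48.4, 91.9 and 52.2 in FILp, 1463 and 1387 in Protoplast_induced and 889 and 1023 in Uninduced. WUSp lay above all other arrays and FILp below all of them. CLV3p exceeded FILp by 4.11 ± 0.22 on the log2 scale (adjusted p = 3.11e-09), and FILp fell by 3.34 ± 0.22 relative to CLV3n (adjusted p = 5.96e-07). These adjusted p likewise describe the fit, as the means of these groups entered the rule. Among the other members with a locus name and a high ratio, AT3G28600 (5.84), AT1G08940 (4.56) and AT4G28140 (4.54) were at least 4-fold higher in WUSp than in each of the 5 other groups. So were AT5G54170 (4.13), AT2G22760 (4.08) and AT5G56980 (4.05). AT3G28600 read 121 and 180 in WUSp and read at most 40.4 on every other array, where many of its signals were under the floor. AT1G62480 (5.81) read 606 on WUSp 1 and 200 on WUSp 2, and Uninduced, at 233 and 359, overlapped that range.

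BGLU46 (AT1G61820) and BGLU45 (AT1G61810) encode beta-glucosidases that release monolignols, the building blocks of lignin, from their glucosides. BGLU46 read 1124 and 1013 in WUSp, 227, 158 and 115 in CLV3n, 202, 90.7 and 45.9 in CLV3p, 53.3, 153 and 147 in FILp, 338 and 333 in Protoplast_induced and 294 and 322 in Uninduced. Its WUSp arrays stood above all others, 6.65-fold over the highest sorted mean and 3.18-fold over Protoplast_induced. BGLU45 read 191 and 142 in WUSp, 108, 49.4 and 46.4 in CLV3n, 51.4, 23.6 and 14.0 in CLV3p, 22.4, 88.7 and 56.9 in FILp, 268 and 243 in Protoplast_induced and 215 and 226 in Uninduced. Here both unsorted groups lay above WUSp. The genes are neighbours in the RefSeq annotation, as are the members AT1G19020 and AT1G19025, the only other such pair among the 95 member loci found there. Whether probes of close relatives share signal is not analysed here. Of 20 probe sets of the BGLU series, BGLU45 and BGLU46 were the members, and 10 had their highest sorted mean in WUSp, as had 21.4% of all probe sets. The share was 31.8% of probe sets with both WUSp arrays at 100 or more, a level that 8 of the 20 reached. The 10 include both members, which are highest by the rule. They also include BGLU31 (24.7 against 24.4 in CLV3n) and BGLU32 (29.0 against 26.2 in CLV3p), near the floor. The count is thus a description.

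The UGT family transfers sugars to small molecules such as phenolics and hormones, and 3 of its 47 probe sets were members. UGT71B1 (AT3G21750) read 1417 and 1130 in WUSp, 396, 384 and 384 in CLV3n, 335, 259 and 229 in CLV3p and 320, 470 and 366 in FILp. It read 667 and 710 in Protoplast_induced and 1005 and 1064 in Uninduced, so that Uninduced came close to WUSp. UGT84A3 (AT4G15490), which makes glucose esters of hydroxycinnamic acids, read 402 and 308 in WUSp, 128, 161 and 92.3 in CLV3n, 25.7, 21.9 and 42.0 in CLV3p, 70.1, 124 and 123 in FILp, 163 and 131 in Protoplast_induced and 209 and 210 in Uninduced. All 3 CLV3p arrays lay below every other array. UGT87A2 (AT2G30140), a member of the family linked to flowering time, read 890 and 892 in WUSp, 241 to 495 in the other sorted arrays and 131 to 179 in the unsorted ones, with no overlap between these 3 ranges.

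GTR1 (AT3G47960) encodes a transporter that imports glucosinolates, the sulfur-containing defence compounds of the cabbage family. It read 2177 and 2483 in WUSp, 941, 743 and 493 in CLV3n, 358, 378 and 269 in CLV3p, 924, 1372 and 677 in FILp, 1034 and 871 in Protoplast_induced and 901 and 816 in Uninduced. WUSp lay above all other arrays and CLV3p below all of them. SWEET1 (AT1G21460), a glucose carrier and the member among 14 SWEET probe sets, read 1006 and 708 in WUSp, 268, 277 and 292 in CLV3n, 425, 428 and 350 in CLV3p, 74.4, 88.7 and 108 in FILp, 237 and 217 in Protoplast_induced and 188 and 148 in Uninduced. FILp was the lowest group without overlap. In the other 13 SWEET probe sets the WUSp mean was at most 1.31-fold over the highest other sorted mean. SFP2 (AT5G27360), a sugar porter named after its values were seen, read 170 and 139 in WUSp and 163 on Protoplast_induced 2, which overlap.

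COR47 (AT1G20440) and LTI30 (AT3G50970) encode dehydrins, hydrophilic proteins that accumulate in cold and drought. COR47 read 4852 and 2131 in WUSp, 1360, 1282 and 907 in CLV3n, 1290, 1669 and 1555 in CLV3p, 272, 550 and 374 in FILp, 429 and 314 in Protoplast_induced and 158 and 177 in Uninduced. LTI30 read 4625 and 1451 in WUSp, 600, 589 and 785 in CLV3n, 1101, 1176 and 1494 in CLV3p, 107, 339 and 176 in FILp, 118 and 74.1 in Protoplast_induced and 4.81 and 62.4 in Uninduced. For LTI30 the lower WUSp array overlapped CLV3p, and with WUSp 2 alone its ratio was 1.16, as it was 1.42 for COR47. Both genes were lower in FILp than in the other sorted groups without overlap.

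PMEAMT (AT1G48600), an N-methyltransferase in the synthesis of phosphocholine, read 911 and 605 in WUSp, 182 to 298 in the other sorted arrays, 988 and 960 in Protoplast_induced and 1009 and 785 in Uninduced. It was 3.01-fold above the highest other sorted mean but overlapped Uninduced and lay below Protoplast_induced. MSRB5 (AT4G04830), a methionine sulfoxide reductase that repairs oxidised methionine, read 239 and 484 in WUSp, 98.9, 351 and 90.1 in FILp, at most 48.3 in CLV3n and CLV3p, 722 and 737 in Protoplast_induced and 1019 and 805 in Uninduced. Its Uninduced mean was above WUSp, whose fold over it was 0.376, and FILp 2 overlapped WUSp.

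FER (AT3G51550), a receptor kinase that binds RALF peptides and senses the cell wall, read 2858 and 3081 in WUSp, 772, 1319 and 1051 in CLV3n, 940, 1939 and 1383 in CLV3p, 1411, 1391 and 1042 in FILp, 1342 and 1638 in Protoplast_induced and 1801 and 1875 in Uninduced. WUSp lay above all other arrays, and no tested difference of FER passed the threshold. Its relative THE1 had a WUSp mean 1.03-fold over the highest other sorted mean. PUB24 (AT3G11840), a U-box ubiquitin ligase that dampens immune responses, read 334 and 300 in WUSp, 79.6 to 179 in the other sorted arrays, 76.5 and 62.4 in Protoplast_induced and 47.0 and 29.8 in Uninduced, again without overlap. Of the 9 PUB probe sets, PUB24 was the member, and 7, PUB24 included, had their highest sorted mean in WUSp. This held for 21.4% of all probe sets and 31.8% of those with both WUSp arrays at 100 or more, as 7 of the 9 had. It held for 16 of 47 UGT, 3 of 14 SWEET and 1 of 4 MSRB probe sets, members included. Members are highest in WUSp by the rule, so these counts are a description.

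PIA1, bZIP44 and AR781 were named after their values were seen. PIA1 (AT2G20630), a protein phosphatase, read 1105 and 1580 in WUSp, 824, 567 and 448 in CLV3n, 333, 216 and 239 in CLV3p, 540, 873 and 521 in FILp, 1504 and 1388 in Protoplast_induced and 1003 and 1127 in Uninduced. bZIP44 (AT1G75390), a leucine zipper transcription factor, read 2199 and 1985 in WUSp, 279 to 1065 in the other sorted arrays, 3382 and 3032 in Protoplast_induced and 2179 and 1770 in Uninduced. Both genes overlapped or fell below unsorted material. AR781 (AT2G26530), for which no role is given here, read 1355 and 843 in WUSp, 202 to 717 in the other sorted arrays, 87.8 and 74.6 in Protoplast_induced and 25.6 and 37.4 in Uninduced, with no overlap of WUSp with any group.

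The members with a symbol include a pair of plastid genes. atpB, the beta subunit of the chloroplast ATP synthase, read 10255 and 8769 in WUSp, 3228 to 6086 in the other sorted arrays, 15946 and 14985 in Protoplast_induced and 7620 and 6582 in Uninduced. All 6 plastid ATP synthase genes, the member atpB included, had their highest sorted mean in WUSp. The ratios ran from 1.05 for atpH to 2.32 for atpB. A highest sorted mean in WUSp was held by 21.4% of all probe sets and 31.8% of those with both WUSp arrays at 100 or more, as 5 of the 6 had. In all 6 Protoplast_induced was higher than WUSp. ccsA, needed to attach haem to plastid cytochromes and named after its values were seen, read 2909 and 1908 in WUSp, 435 to 1161 in the other sorted arrays, 1660 and 1037 in Protoplast_induced and 676 and 700 in Uninduced. The mesophyll marker sums were highest among sorted arrays in WUSp as given above, although LHCB4.1 by itself overlapped CLV3n and FILp. The part of the mesophyll markers in these plastid signals was not tested.

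**Figure D3:**
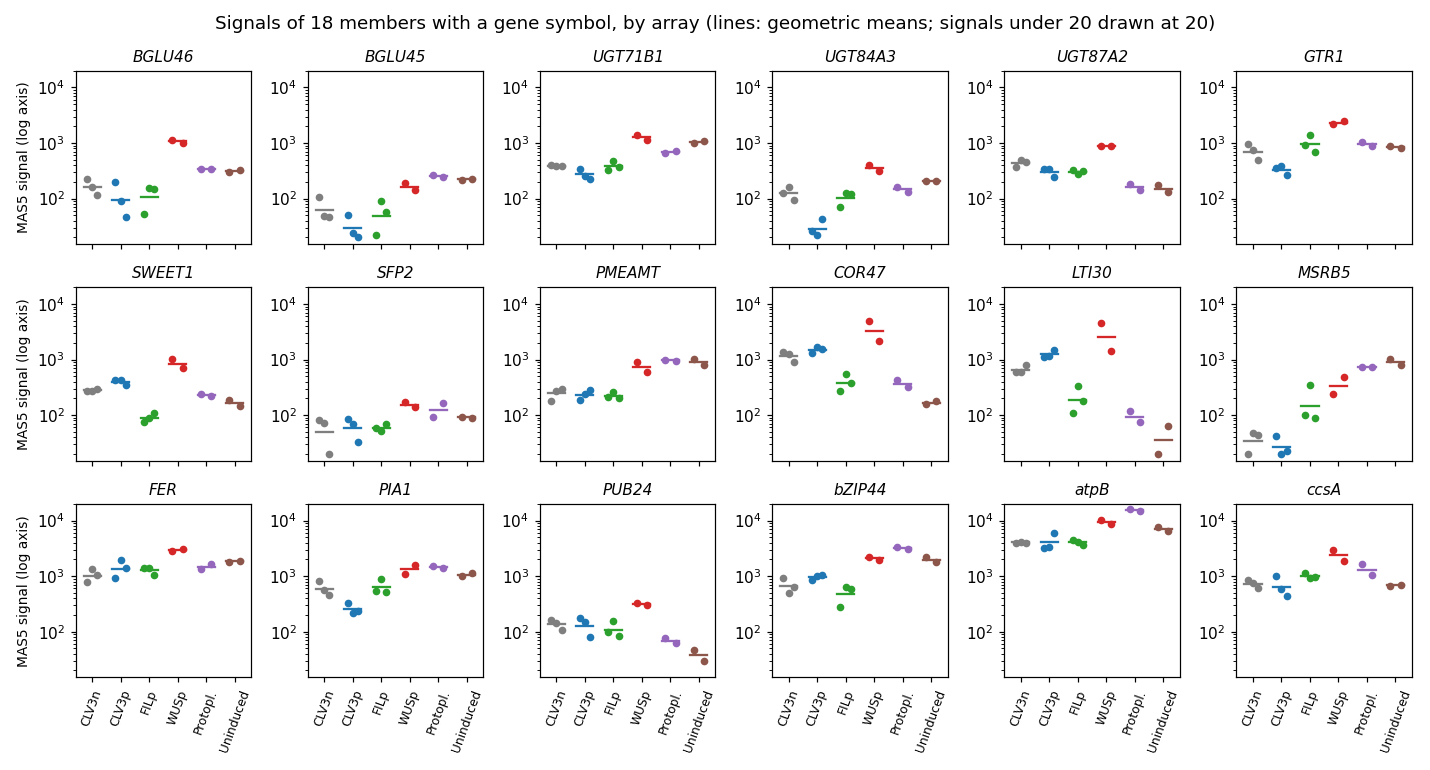
Signals of 18 members with a symbol are plotted by array (points, log axis, signals under 20 drawn at 20) with the geometric mean of each group as a line. WUSp is the highest sorted group in each panel, while Protoplast_induced or Uninduced reaches or exceeds it for BGLU45, PMEAMT, MSRB5, PIA1, bZIP44 and atpB.

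Outside the sorted groups, the median signal over the members was 303 in Protoplast_induced and 201 in Uninduced, against 743 in WUSp. WUSp was the highest of the 6 groups for 197 members and at least 2-fold above all 5 others for 131. Protoplast_induced reached or exceeded WUSp for 42 members and Uninduced for 29. Since the members were chosen for high WUSp signals, these counts are a description. Both Uninduced arrays were under the floor in 16 members and both Protoplast_induced arrays in 3. All FILp arrays were under it in 5 members and all CLV3p arrays in 2. Any array of the group was under it in 32 members for Uninduced and 8 for Protoplast_induced. For CLV3p, FILp and CLV3n this held in 39, 25 and 20. The groups differ in their number of arrays and no share over all probe sets is given, so the groups are not ranked by these counts.

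Protoplast_induced was compared with Uninduced, a pair of groups that did not enter the rule, to see how the members relate to the preparation of protoplasts. Of 247 members, 196 passed the filter on low signals, and 77 of these (39.3%) were higher and 10 (5.10%) lower in Protoplast_induced, where 10.5% of all 13911 tested probe sets were higher and 11.4% lower. All 247 members entered a single fit of all 15 arrays. There 38 were higher and 0 lower by limma (2 lower at an unadjusted p under 0.05). Calls over all probe sets were also fewer in that fit, as given below. With the filter at the 60th percentile 42 members were higher, and no share over all probe sets is set beside this count. The median log2 difference was 0.40 in the tested members and 0.00158 over all tested probe sets. Of the members called higher, 40 differed by at least 2-fold, which was not counted over all probe sets. The poly-A control spikes (mean log2 signal 8.59 and 7.96 in Protoplast_induced, 6.18 and 6.14 in Uninduced) and the log2 ratio of 3′ to 5′ signal of actin (5.13 and 5.30 against 4.60 and 4.66) moved with this pair, and their part in the differences was not tested. The filter kept 20 members only through their Protoplast_induced signals, of which 19 were called higher, so these had to differ. Without the filter 71 of 247 were higher and 8 lower, beside 4.84% and 4.91% of all probe sets. Of the 162 members above the filter on all 4 arrays, 54 were higher and 10 lower, beside 9.53% higher among all such probe sets. The share called lower among all such probe sets was not counted, so nothing is read from the 10. The number called higher fell to 42 without Protoplast_induced 1 and to 47 without Protoplast_induced 2, and the number called lower to 5 without Protoplast_induced 1. Calls over all probe sets also fell without either of these arrays, as given below.

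**Figure D4:**
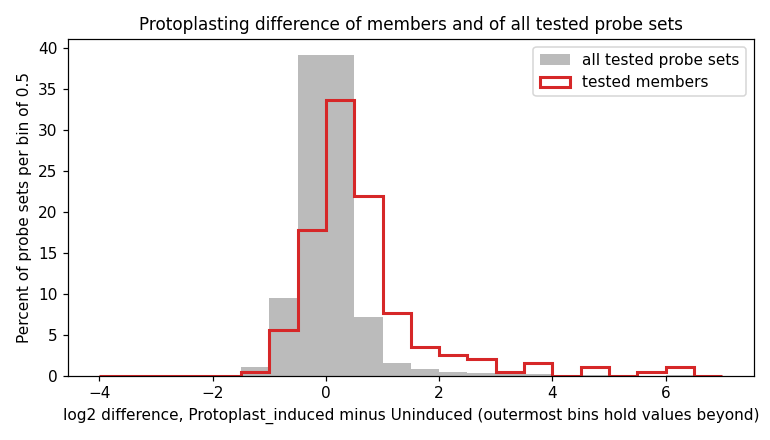
The histogram plots the log2 difference of Protoplast_induced minus Uninduced (horizontal, bins of 0.5) as a percent of the 196 tested members (red line) and of all 13911 tested probe sets (grey). The grey bars are centred on 0, while the members lean to positive differences, with a median of 0.40.

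The largest increases were in members known only by a locus. AT3G02840 read 35.3 and 24.4 in Uninduced, 1682 and 1592 in Protoplast_induced and 5645 and 6028 in WUSp, and every other sorted array lay between 1350 and 3448. Its log2 difference between Protoplast_induced and Uninduced was 5.80 ± 0.22 (SE, n = 2 and 2; adjusted p = 9.72e-09). AT3G02840 and AT5G56980 passed the filter only through their Protoplast_induced signals, and in the fit without the filter their adjusted p was 1.54e-06 and 0.0169. Unsorted material without protoplasting thus gave the lowest of all its signals. AT5G56980 rose by 3.55 ± 0.70 (adjusted p = 0.00712; 2.58 with signals raised to the floor of 19.2), from 26.5 and 5.04 to 151 and 121, with 1472 and 1008 in WUSp. AT5G10695 rose by 2.96 ± 0.23 (adjusted p = 4.31e-06), from 63.9 and 95.6 to 681 and 546, with 1990 and 2103 in WUSp. AT5G35735 rose by 2.95 ± 0.28 (adjusted p = 0.000204), from 166 and 118 to 1424 and 814, with 7133 and 4524 in WUSp. The same order of Uninduced, Protoplast_induced and WUSp held for AT4G01870 and AT2G44500, which rose by 2.18 ± 0.19 and 2.14 ± 0.16 (adjusted p = 4.41e-05 and 2.22e-06).

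Among members with a symbol, atpB rose by 1.13 ± 0.09 on the log2 scale (adjusted p = 4.41e-06), COR47 by 1.14 ± 0.20 (0.00235), ccsA by 0.93 ± 0.20 (0.00987), bZIP44 by 0.71 ± 0.13 (0.00236) and PIA1 by 0.44 ± 0.13 (0.0271). The PIA1 call ended when either Protoplast_induced array or Uninduced 1 was left out, and in the centred, unfiltered and plain eBayes fits. The ccsA call ended without Uninduced 1 or Uninduced 2 (adjusted p = 0.116 and 0.108). In a single fit of all 15 arrays the calls of COR47, ccsA, bZIP44 and PIA1 ended (adjusted p = 0.0841, 0.133, 0.28 and 0.499), and that of atpB held. All 6 plastid ATP synthase genes and 4 of 5 tested plastid cytochrome genes were higher in Protoplast_induced, beside 10.5% of all tested probe sets. The former rose by 0.66 for atpE to 2.33 for atpI. The filter kept atpI only through its Protoplast_induced signals (253 and 142, against 30.6 and 46.7 in Uninduced), so it had to differ. These counts include the members atpB and ccsA, for which the families were chosen, and are a description. PUB24, LTI30 and AR781 did not pass the filter and were not tested. The related PUB22 had group means of 123 in Protoplast_induced and 20.8 in Uninduced.

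Lower in Protoplast_induced were UGT71B1, which fell by 0.59 ± 0.13 (adjusted p = 0.00758), AT5G17760, which fell by 1.14 ± 0.24 (adjusted p = 0.00584), and AT1G62480, which fell by 0.89 ± 0.23 (adjusted p = 0.0172). AT5G17760 read 279 and 460 in Uninduced, 166 and 158 in Protoplast_induced and 354 and 239 in WUSp, so Uninduced and WUSp overlapped. The call of UGT71B1 ended without Protoplast_induced 1 (adjusted p = 0.0697) and that of AT1G62480 without Uninduced 2 (adjusted p = 0.112). In the single fit of 15 arrays all 3 ended (adjusted p = 0.148 for UGT71B1, 0.443 for AT5G17760 and 0.717 for AT1G62480). Of 18 tested UGT probe sets, 5 were lower and 1 was higher, beside 11.4% and 10.5% of all tested. BGLU46, BGLU45, GTR1, SWEET1, PMEAMT, UGT84A3, UGT87A2, SFP2, MSRB5 and FER were tested and not called, with log2 differences from -0.52 for UGT84A3 to 0.44 for SWEET1.

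The 77 members called higher had median signals of 167 in Uninduced, 514 in Protoplast_induced, 367, 338 and 362 in CLV3n, CLV3p and FILp and 1321 in WUSp. All 3 other sorted means lay above the Uninduced mean in 46 of them, and WUSp was at least 2-fold above Protoplast_induced in 48. The 109 members tested and not called had medians of 444, 452, 258, 164, 199 and 776 in the same order of groups. For the 10 called lower these medians were 637, 380, 142, 134, 155 and 401. The 51 members not tested had 27.8, 61.7, 93.1, 55.7, 76.4 and 336, and 48 of them were at least 2-fold higher in WUSp than in Protoplast_induced. Protoplast_induced and Uninduced values chose these subgroups, so neither their order within a subgroup nor the place of the other groups relative to them is a separate result.

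**Figure D5:**
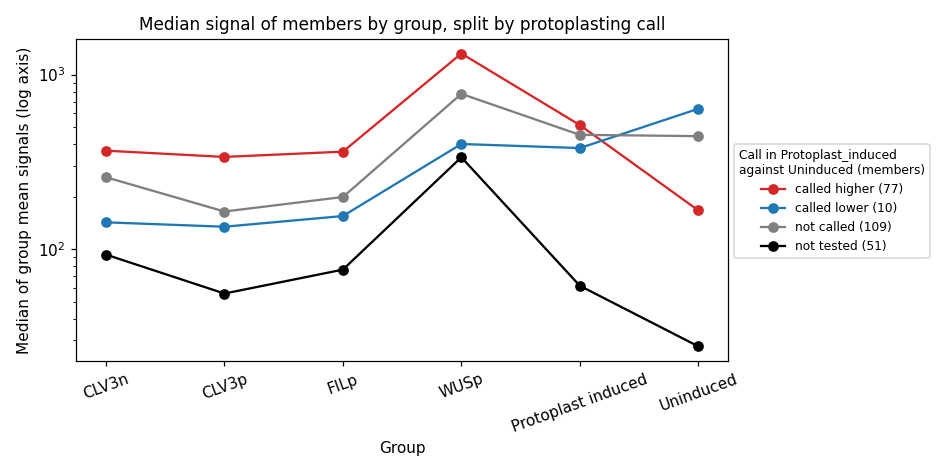
Lines join, for 4 sets of members split by their call between Protoplast_induced and Uninduced, the median of the members' mean signals in each of the 6 groups (log axis). All 4 sets peak in WUSp among sorted groups, as the rule requires. The set called higher has CLV3n, CLV3p and FILp medians of 338 to 367 and an Uninduced median of 167, which is low by the way the set was chosen.

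Signals of the members in the 3 other sorted groups are described next. CLV3n, CLV3p and FILp means entered the rule, so the counts and adjusted p in these comparisons describe the fit and nothing is read from a member share against all probe sets. CLV3p was compared with FILp, CLV3p with CLV3n and FILp with CLV3n in a fit of the 11 sorted arrays, which the 247 members all entered because both WUSp arrays read 100 or more. These comparisons share arrays, so their counts are not independent. Between CLV3p and FILp, 29 members were higher and 41 lower in CLV3p (28.3% in all), where 10.5% of all 15052 tested probe sets were higher and 12.2% lower (22.6% in all). Between CLV3p and CLV3n, 7 were higher and 41 lower in CLV3p, beside 4.88% and 8.95% of all tested (19.4% of the members and 13.8% of all in either direction). Between FILp and CLV3n, 1 was higher and 23 were lower in FILp, beside 1.73% and 2.56% of all tested (9.72% of the members and 4.3% of all in either direction). Median log2 differences over the members were -0.05, -0.32 and -0.27 in these comparisons, against 0.03, 0.02 and -0.01 over all tested probe sets. In a fit without the WUSp arrays, chosen after seeing the data, 217 members passed the filter and 61, 39 and 21 were called, beside 21.3%, 12.9% and 3.87% of all 14859 tested.

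The bioC level divides these groups, and all FILp arrays have the low level. With that level as a block the members called were 70, 58 and 15 in the same order of comparisons. Within the arrays of low bioC CLV3p and CLV3n have 1 array each, so the spread came from the 3 FILp arrays alone and the lone arrays are assumed to vary like them. There 55, 20 and 10 members were called, and within those of high bioC 40 were called between CLV3p and CLV3n. These fits were chosen after seeing the data. Shares called over all probe sets are not set beside these counts, so nothing about the members is read from them. The FILp against CLV3n count was 14 without FILp 1.

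CLV3p was the low group for several genes. AT2G45340 read 110, 119 and 106 in CLV3p, 715, 1058 and 706 in CLV3n, 915, 939 and 713 in FILp and 2005 and 1565 in WUSp, with 1480 to 1760 in the unsorted arrays. In CLV3p it fell by 2.93 ± 0.20 relative to FILp (log2, n = 3 and 3; adjusted p = 3.07e-08) and by 2.87 ± 0.20 relative to CLV3n (adjusted p = 1.05e-07), and by 2.93 and 2.74 relative to CLV3n within high and low bioC. Unsorted material thus nearly matched WUSp while CLV3p stood apart. AT5G17760 and AT3G50280 were likewise lower in CLV3p than in CLV3n, with log2 differences of -2.87 ± 0.61 and -2.71 ± 0.44 (adjusted p = 0.00519 and 0.000512; -2.24 and -2.44 with signals raised to the floor).

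Among the symbols, UGT84A3 fell in CLV3p by 2.11 ± 0.36 relative to CLV3n (adjusted p = 0.000779) and by 1.83 ± 0.36 relative to FILp (adjusted p = 0.00156). Within low bioC these differences, from a single CLV3p array, were -1.14 and -1.28 and were not called. GTR1 fell in CLV3p by 1.52 ± 0.26 relative to FILp (adjusted p = 0.000632) and by 1.08 ± 0.26 relative to CLV3n (adjusted p = 0.0124), and the second call ended without CLV3n 1 or CLV3p 3 (adjusted p = 0.0585 and 0.0599). PIA1 fell by 1.28 ± 0.26 relative to FILp (adjusted p = 0.00247) and by 1.20 ± 0.26 relative to CLV3n (adjusted p = 0.00607), the latter a difference of -0.91 between single arrays within low bioC, which was not called. Signals of the glucosinolate transporter, the hydroxycinnamate glucosyltransferase and the phosphatase were thus lowest in CLV3p among sorted groups. This is a description, since CLV3p was the lowest sorted group for 115 of the 247 members. MSRB5 fell by 2.81 ± 0.76 in CLV3p relative to FILp (adjusted p = 0.0157), a call that ended without CLV3p 2, without FILp 2 and with the bioC block (adjusted p = 0.0694, 0.0861 and 0.0985).

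FILp was the low group for others. SWEET1 was higher in CLV3p than in FILp by 2.16 ± 0.21 (adjusted p = 1.52e-06) and fell in FILp by 1.64 ± 0.21 relative to CLV3n (adjusted p = 0.000224), a difference of -1.71 within low bioC, where CLV3n has a single array. COR47 was higher in CLV3p than in FILp by 1.97 ± 0.30 (adjusted p = 0.000228) and fell in FILp by 1.61 ± 0.30 relative to CLV3n (adjusted p = 0.00635), of which the second call was lost with the bioC block (adjusted p = 0.0609). LTI30 was higher in CLV3p than in FILp by 2.75 ± 0.43 (adjusted p = 0.000685). Its fall of 1.81 ± 0.43 in FILp relative to CLV3n (adjusted p = 0.0385) was lost when any of CLV3n 1, CLV3n 2, CLV3n 3, FILp 1 and FILp 3 was left out. Both dehydrin genes and the glucose carrier thus had lower signals in FILp than in CLV3p. This too is a description, since FILp was the lowest sorted group for 97 of the 247 members. bZIP44 was 1.04 ± 0.28 higher in CLV3p than in FILp (adjusted p = 0.0158), and this call ended without FILp 1, with a difference of 0.67 (adjusted p = 0.0644), and with the bioC block, with a difference of 1.07 (adjusted p = 0.0531). BGLU46, BGLU45, UGT71B1, UGT87A2, PMEAMT, FER, PUB24, SFP2, AR781, atpB and ccsA were not called in any of these comparisons.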

How the data were processed

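Signals of 22810 probe sets on 15 Affymetrix arrays were used as deposited. They are MAS5 intensity values on a linear scale per probe set, per the submitters' processing notes, which give no version, and the authors' values share a trimmed mean (2nd to 98th percentile) of 499.81 to 499.84 on every array. Total RNA was labelled with biotin, per the labels' protocols. No array repeats another, and the number of arrays limits the precision. After 64 control probe sets were set aside, log2 signals were tested without further normalization by lmFit and by eBayes (trended prior, robust) of limma 3.58.1, run in R 4.3.3. Tests were two-sided, with Benjamini-Hochberg adjustment over all probe sets that entered and a threshold of 0.05. To enter, a probe set had to exceed the 40th percentile of an array on 2 or more arrays in the fit. One fit held the 11 sorted arrays, the other the 4 of Protoplast_induced and Uninduced. The fits were tested on simulated data. Floored differences raise signals under the 20th percentile of the fit to it. A fold of a floored mean is a bound where all arrays are under the floor. Genes come from the supplied probe table, which gives 1 gene for 13513 probe sets, and neighbours from the RefSeq gene table of TAIR10.1. Probe sequences are not analysed here. Members and lists were chosen with earlier results of these data known. Members were named by largest ratio, highest WUSp signal, gene lists, largest called changes and nearness to the limit, unless stated otherwise.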

Additional observations from a re-analysis of the deposited data

How the results depend on the processing

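The rule kept 240 members with a floor of 50, 247 with a floor of 10, 204 with both WUSp arrays at 200 or more, 269 (234 of them shared with the 247) after quantile normalization, 300 (245 shared) with arrays centred on their medians and 234 with arithmetic means. It kept 79 at 3-fold and 395 (206 shared) on high bioC arrays, which leaves out FILp. Leaving out 1 array gave 217 to 363, with 363 (229 shared) without WUSp 2 and 247 (198 shared) without WUSp 1. Members called higher in Protoplast_induced numbered 42 with a filter at the 60th percentile and 38 in a single fit of 15 arrays, and 42 to 76 when 1 array was left out. Those called lower numbered 0 in that single fit by limma (2 at an unadjusted p under 0.05) and 5 to 12 when 1 array was left out. Over all probe sets this pair had 3052 calls, 727 in the single fit, 1972 with plain eBayes, 1576 without Protoplast_induced 1 and 1871 without Protoplast_induced 2. Leaving out 1 array gave 53 to 72 members called for CLV3p against FILp, 33 to 55 for CLV3p against CLV3n and 14 to 25 for FILp against CLV3n. Calls over all probe sets are not set beside the ranges for CLV3p, so nothing about the members is read from them. Chosen after seeing the data, the fit without CLV3n 1 and CLV3p 1 called 15 members for FILp against CLV3n, the bioC block 15, and fits within low bioC 10 for that comparison and 20 for CLV3p against CLV3n. FILp against CLV3n had 647 calls over all probe sets, and 430, 404 and 399 in these fits, 361 without CLV3n 1, 389 without FILp 1, 418 without FILp 2, 355 without FILp 3 and 1032 in the single fit. CLV3p against CLV3n had 2082, and 1136 within high and 1206 within low bioC. Of 423 recomputed values of named members for protoplasting, 26 lost and 3 gained the call, and of 504 for the sorted comparisons 56 lost it. No called value changed sign.

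Replicate numbers were not taken as pairs. Deviations of same-numbered arrays correlated at 0.096 for Protoplast_induced and Uninduced and at 0.346, 0.044 and 0.347 for CLV3p and CLV3n, where all 6 arrays correlated best with their own number. With the replicate block, 86 members were higher and 13 lower in Protoplast_induced, and 79, 59 and 28 were called for CLV3p against FILp, CLV3p against CLV3n and FILp against CLV3n. Calls over all probe sets with this block are not given here, so these counts are not read as a result about the members.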

Other observations

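Of 30 gene lists matched by symbol, 5 held a member and 25 held none. The 3 UGT members lay among 47 glycosyltransferase genes, GTR1 among 28 sulfur and glucosinolate genes (where BGLU45 and BGLU46, described above as acting on monolignol glucosides, matched by their letters only), SWEET1 among 19 sugar genes, PUB24 among 43 ubiquitin ligase and F-box genes, and PMEAMT, which matched by its letters only, among 17 pectin and wall genes. None of the 42 MADS genes, 18 auxin genes, 26 cytochrome P450 genes, 22 receptor kinase and peptide genes or 57 chloroplast genes matched by symbol was a member, and atpB, ccsA and FER lie outside the symbol patterns of those lists. The 27 XTH and expansin genes held none after XTH18 was set aside by name.

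AT5G64120, listed as peroxidase 71 in the RefSeq gene table and named after its values were seen, read 1832 and 980 in WUSp, 475, 261 and 337 in CLV3n, 193, 164 and 230 in CLV3p, 632, 385 and 246 in FILp, 45.8 and 54.9 in Protoplast_induced and 35.5 and 3.77 in Uninduced. WUSp lay above all other arrays, and the unsorted groups lay below every sorted array. The neighbouring members AT1G19020 and AT1G19025 read 1573 and 1444, and 917 and 656, in WUSp. AT1G19020 rose by 1.81 on the log2 scale in Protoplast_induced (adjusted p = 0.00508 by limma), while AT1G19025, with a difference of 0.29, was not called (adjusted p = 0.414).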
